A study of Mus musculus with 12 samples.

Results

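Refeeding was compared with fasting in the livers of control mice, from 6 of the 12 arrays of a mouse study. The comparison was chosen by its labels alone, control genotype and feeding state, and no measured value entered the choice. The 3 WT fasted livers were taken after 22 h of fasting and the 3 WT refed livers after 4 h of refeeding. Every feature on the array was tested. WT mice were the littermates of animals whose hepatocytes had been made to lack 3 FoxO genes, FoxO1, 3 and 4 (TKO). All mice had a C57BL/6J and 129 mixed background, in cohorts matched for age and sex. The sources used here do not give the ages, the sex, the Cre driver, the length of the fast before refeeding or the clock time of sampling. The 6 TKO arrays, also 3 fasted and 3 refed, are used below only as a second set of livers in which the same features could be read. Nothing states that the samples came from separate animals, so p-values rest on the scatter among these 6 samples, some of which may be technical.

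The liver makes glucose and ketone bodies during a fast, when insulin is low and FoxO transcription factors in the nucleus keep genes of glucose production on. After a meal, insulin signalling moves FoxO proteins out of the nucleus, and transcription factors such as SREBP-1c and ChREBP drive genes of glycolysis and fat synthesis. Bile acid, amino acid and drug metabolism also change with feeding, in part through signals from the gut and through daily rhythms.

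The values were log2 array signals summarised by RMA, 1 for each of 23238 features on each array. A difference of 1 on this scale is a 2-fold difference. A GEO platform annotation gave 1 gene symbol to 14939 features, several to 989 and none to 7310, and the genes below are those with a symbol of their own. The 6 arrays had medians between 5.79 and 5.90, and arrays of the same group correlated at 0.985 to 0.988 across features, against 0.982 to 0.988 between fasted and refed arrays. The 2 ranges overlapped. The hepatocyte markers were high: transthyretin (Ttr) read between 13.84 and 14.00 and fetuin-A (Ahsg) between 13.50 and 13.72 in the 6 livers.

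Before the results, one measurement bears on how they are read. Several of the genes most used to tell a fasted from a refed liver overlapped between these 2 groups. At least 1, Pdk4, lay on the side opposite to its known response. Pck1, which encodes the cytosolic PEPCK of gluconeogenesis, read 12.71, 12.98 and 12.92 in the fasted livers and 13.04, 12.89 and 12.70 in the refed livers. Its difference was 0.01 (95% interval -0.31 to 0.33). G6pc, Igfbp1, Srebf1, Fasn, Acly and Pklr overlapped too. Pdk4, known to be high in fasting, read 6.76 to 7.36 in the fasted livers and 8.02 to 8.78 in the refed livers. Ppargc1a was lower and Scd1 higher in every refed liver. By contrast, Fgf21, on the list of fatty acid oxidation and ketogenesis, was higher in every refed liver, at 0.44. Mid1ip1, on the fatty acid synthesis list with Scd1, was lower in every refed liver, at -0.53. Each lay on the side opposite to the one described above for the process that its list names. The feeding state therefore rests on the labels, and these genes did not settle it.

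One feature passed the test. Abhd1, an alpha/beta hydrolase domain gene, read 9.86, 9.86 and 9.64 in the fasted livers and 7.83, 8.08 and 7.84 in the refed livers. All 3 refed livers lay below all 3 fasted ones. Abhd1 fell by 1.87 on the log2 scale (SE 0.121, 95% interval -2.16 to -1.58), which is 3.65-fold lower after refeeding, with a limma Benjamini-Hochberg adjusted p of 0.046. This was 1 feature of 23238, or 0.0043% called. The call was lost when any 1 of the 6 arrays was left out, where the adjusted p ran from 0.0939 to 0.339, and it was 0.0538 after cyclic loess and 0.653 in the fit to all 12 arrays. The difference kept its direction in each of these fits. In TKO livers, Abhd1 read 7.89, 9.71 and 9.99 after fasting and 7.90, 9.85 and 9.56 after refeeding, so a low and a high level both occurred in each feeding state. Abhd1 was not in any list of genes and is named because it passed the test.

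**Figure D1:**
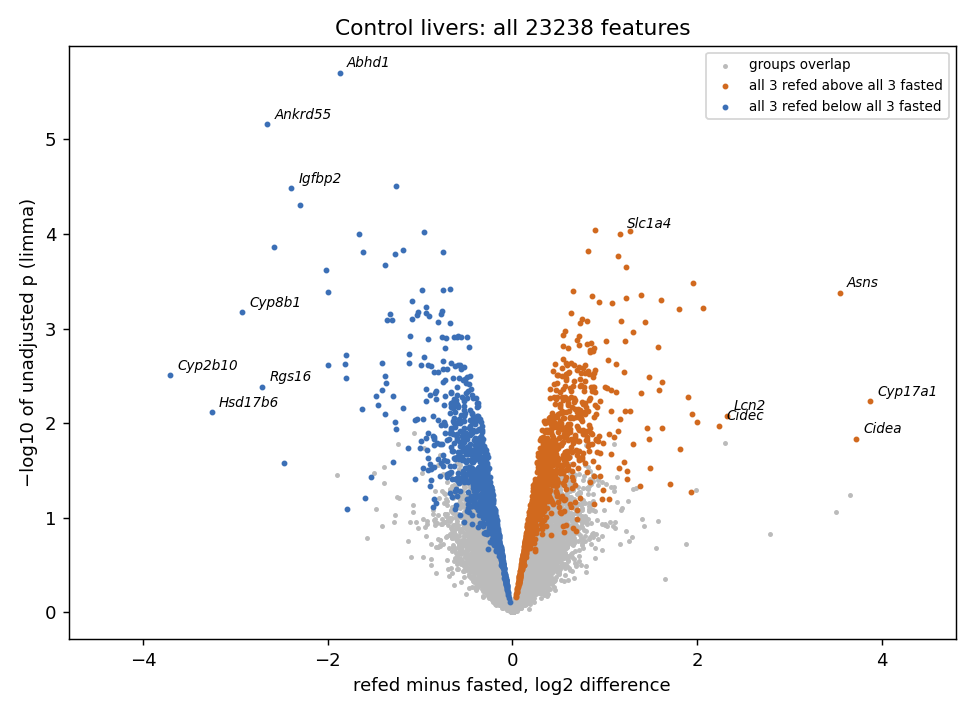
Mean log2 difference, refed minus fasted (x axis), against the unadjusted p-value on a -log10 scale (y axis) for the 23238 features of the 6 WT arrays. The 1 feature with an adjusted p under 0.05 is Abhd1, 3.65-fold lower in the refed livers.

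The other differences did not reach an adjusted p of 0.05, and the next smallest was 0.0801. At an unadjusted p under 0.05 there were 1290 features, or 5.55%, of which 700 were higher and 590 lower in the refed livers. A share near 0.05 would pass this threshold if no feature differed. At least a 2-fold difference of means separated 92 features upward and 73 downward, 0.396% and 0.314% of all features and 0.71% together. In 1203 features all refed livers lay above all fasted ones and in 1110 all lay below, 5.18% and 4.78% of the features, 9.95% together. After median centring of the arrays these counts were 1009 above and 1530 below, so 39.7% instead of 52.0% of the separated features were higher. The direction of this split is thus set by the scaling. For 20631 features, or 88.8%, the 95% interval of the difference lay inside 2-fold in either direction. The interval reached a median of 0.35 log2 units, or 1.28-fold, to either side of the difference.

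Over the 11 pathway lists, which like all lists here were chosen with earlier results of these data known, 24 of 117 features were separated between fasted and refed livers, 20.5%, against the 9.95% of all features, and 20 had an unadjusted p under 0.05, but 0 were called. The 6 added lists, drawn up after these values were seen, had 38 features separated, 35.8% of theirs.

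The 5 single-gene features with the highest refed mean relative to the fasted mean, among those whose groups did not overlap, were Cyp17a1, Cidea, Asns, Lcn2 and Cidec. The 5 lowest were Cyp2b10, Hsd17b6, Cyp8b1, Rgs16 and Ankrd55. They were selected by the difference itself, so the values below describe them, and none had an adjusted p under 0.05. The plot of these 10 genes shows that the spread within a group differs widely from gene to gene.

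**Figure D2:**
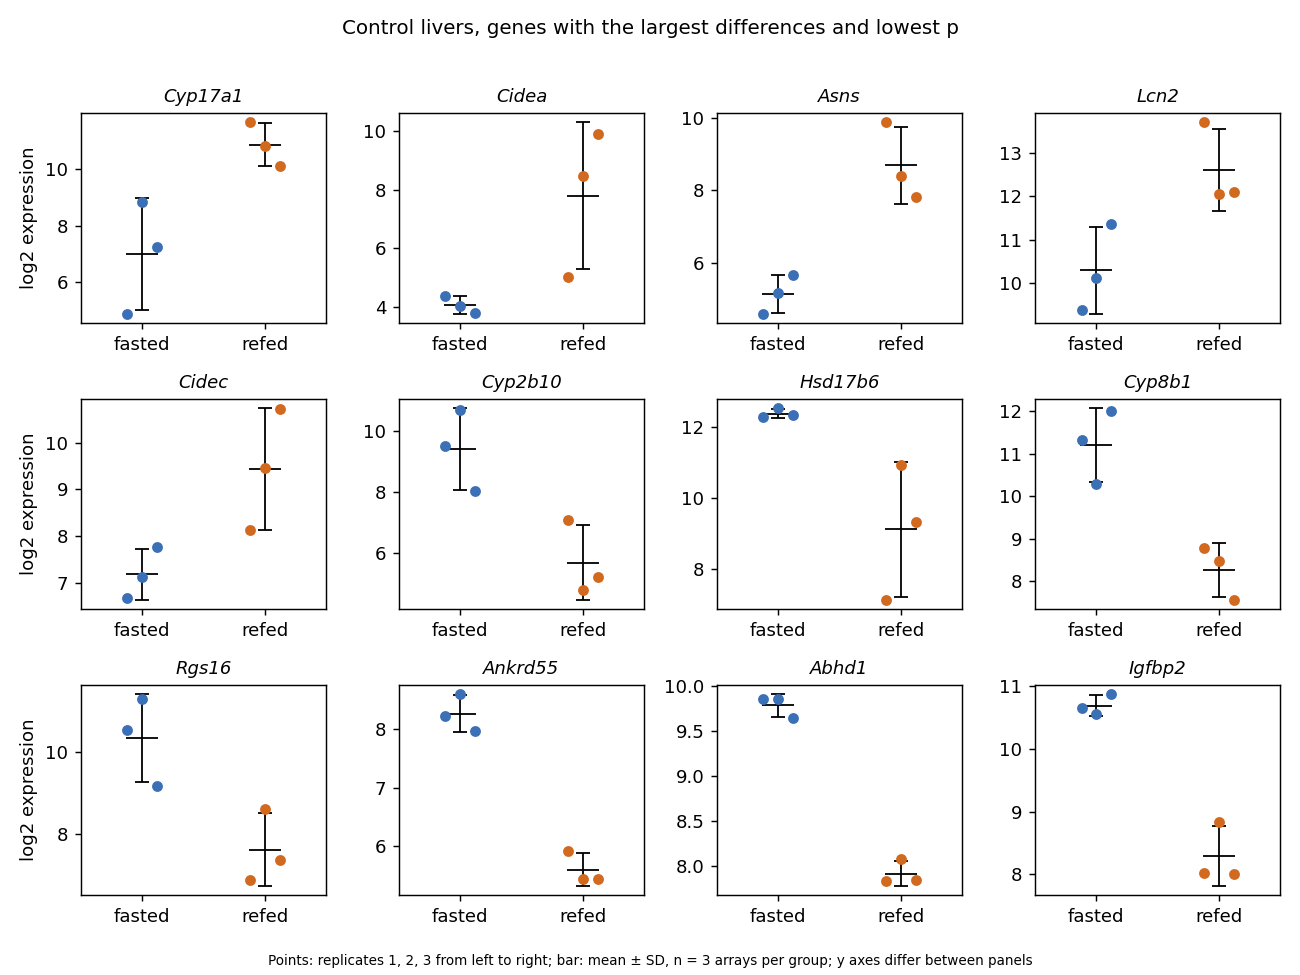
Log2 signal (y axis) in each of the 3 fasted and 3 refed WT livers for the 5 genes with the highest and the 5 with the lowest refed minus fasted difference among those whose groups did not overlap. The last panels show Abhd1 and Igfbp2, which had low p-values. Each point is 1 array, and bars show the mean and SD of 3 arrays with separate y axes. Cidea read between 5.03 and 9.89 in the refed livers, while Ankrd55 read between 5.44 and 5.93.

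Asns encodes asparagine synthetase, which makes asparagine from aspartate and glutamine and is a known target of the transcription factor ATF4 when amino acids are short. It read 4.59, 5.17 and 5.66 in the fasted livers and 9.87, 8.39 and 7.80 in the refed livers. The lowest refed liver was far above the highest fasted liver. The difference was 3.55 (SE 0.544, 95% interval 2.25 to 4.85), 11.7-fold higher after refeeding with a limma adjusted p of 0.359, and it stayed between 2.96 and 3.99 when each array was left out. The TKO livers did not show it: they read 7.29, 6.05 and 5.77 after fasting and 6.38, 7.40 and 5.63 after refeeding, a difference of 0.10. The refeeding difference was 3.45 larger in WT than in TKO (limma on 12 arrays, unadjusted p = 0.00214, adjusted p = 0.924), so it did not pass the test of the interaction.

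The Asns promoter is shown because it carries the element through which this gene is known to answer to amino acid supply, and the array reports the gene's RNA. The sequence is the 250 bases before the annotated start in RefSeq for GRCm38.p6, chr6:7693210-7693459, on the minus strand and written 5′ to 3′. The capitals mark the 1 match to TGATGNAA, a form of the C/EBP-ATF element that ATF4 reads, found by searching both strands.
Asns: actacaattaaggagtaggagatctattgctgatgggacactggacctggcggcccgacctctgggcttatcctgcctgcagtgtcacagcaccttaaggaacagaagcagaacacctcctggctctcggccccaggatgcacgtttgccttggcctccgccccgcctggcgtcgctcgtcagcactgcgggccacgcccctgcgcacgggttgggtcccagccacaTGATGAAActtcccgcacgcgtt
The match lies 23 to 16 bases before the start. The same search found the motif in 1134 of 32851 promoter windows of 250 bases, or 3.45%, and a match describes the letters only.

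Of the other genes of the amino acid response, Slc1a4, a transporter of neutral amino acids, was separated with little spread. It read 5.23, 5.60 and 5.58 in the fasted livers and 6.59, 6.78 and 6.54 in the refed livers. Its difference was 1.17 (SE 0.14), 2.24-fold higher with an adjusted p of 0.231 by limma, against 0.13 in TKO livers (interaction unadjusted p = 0.000828, adjusted p = 0.924). Fgf21, a hormone released by the liver, was 0.44 higher (adjusted p = 0.664). Other ATF4-linked genes lay on the opposite side. Trib3, a pseudokinase that restrains Akt, read 6.45, 6.67 and 6.32 fasted against 5.98, 6.07 and 6.00 refed, a difference of -0.46 with an adjusted p of 0.646. Chac1, which degrades glutathione, differed by -0.57 (adjusted p = 0.884), and Atf4 itself by -0.33 (adjusted p = 0.913). Across the 22 measured of 25 genes listed, 5 were higher and 4 lower without overlap, against 5.18% and 4.78% of all features. The median difference was 0.08, and 0 passed the test. The list was drawn up after Asns had been seen, so its counts are a description.

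Genes of lipid droplets and lipid uptake mostly had higher values in the refed livers, the widest of them with a wide spread. Cidea, a lipid droplet protein that promotes droplet fusion, read 4.38, 4.04 and 3.78 in the fasted livers and 5.03, 8.45 and 9.89 in the refed livers. The refed livers were all higher but ran over several log2 units. The difference was 3.72 (SE 1.13), 13.2-fold higher with an adjusted p of 0.725 by limma, and it moved between 2.67 and 5.10 when each array was left out. Its related gene Cidec read 6.68, 7.13 and 7.77 fasted and 8.13, 9.47 and 10.71 refed, 4.73-fold higher (adjusted p = 0.676). The third refed liver held the highest and the first the lowest refed value of both genes.

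Plin4, which coats lipid droplets, read 6.90, 7.67 and 6.52 in the fasted livers and 8.94, 8.76 and 9.57 in the refed livers. The difference was 2.06 (SE 0.337), 4.17-fold higher with a limma adjusted p of 0.36. The fatty acid transporter Cd36 read 9.48, 9.21 and 9.28 fasted and 10.24, 10.82 and 11.23 refed, 2.71-fold higher (difference 1.44, SE 0.249, limma adjusted p = 0.36). In TKO livers Cd36 read 9.51, 8.71 and 7.80 fasted and 11.17, 10.46 and 9.68 refed, again without overlap. Elovl3, an elongase of very long chain fatty acids, was 2.76-fold higher (adjusted p = 0.689) and Plin2, the common droplet coat of hepatocytes, differed by 0.56 (adjusted p = 0.789). Fabp4, a fatty acid binding protein of fat cells and macrophages, differed by 0.69 (adjusted p = 0.662). Of 19 measured genes, from 20 listed, in the list of lipid droplets and lipid uptake, 18 had a higher refed mean, 8 were higher and 0 lower without overlap, the median difference was 0.56, and 0 passed the test. This list too was added after values had been seen. Its median was 0.18 in TKO livers, where 4 genes were higher without overlap. The list's median deviation per array was -0.23, -0.05 and -0.29 in the fasted livers and -0.11, 0.39 and 0.39 in the refed livers, so the first refed liver lay below the second fasted one. The share of separated genes stands against 5.18% of all features separated upward, as the plot of the lists shows.

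**Figure D3:**
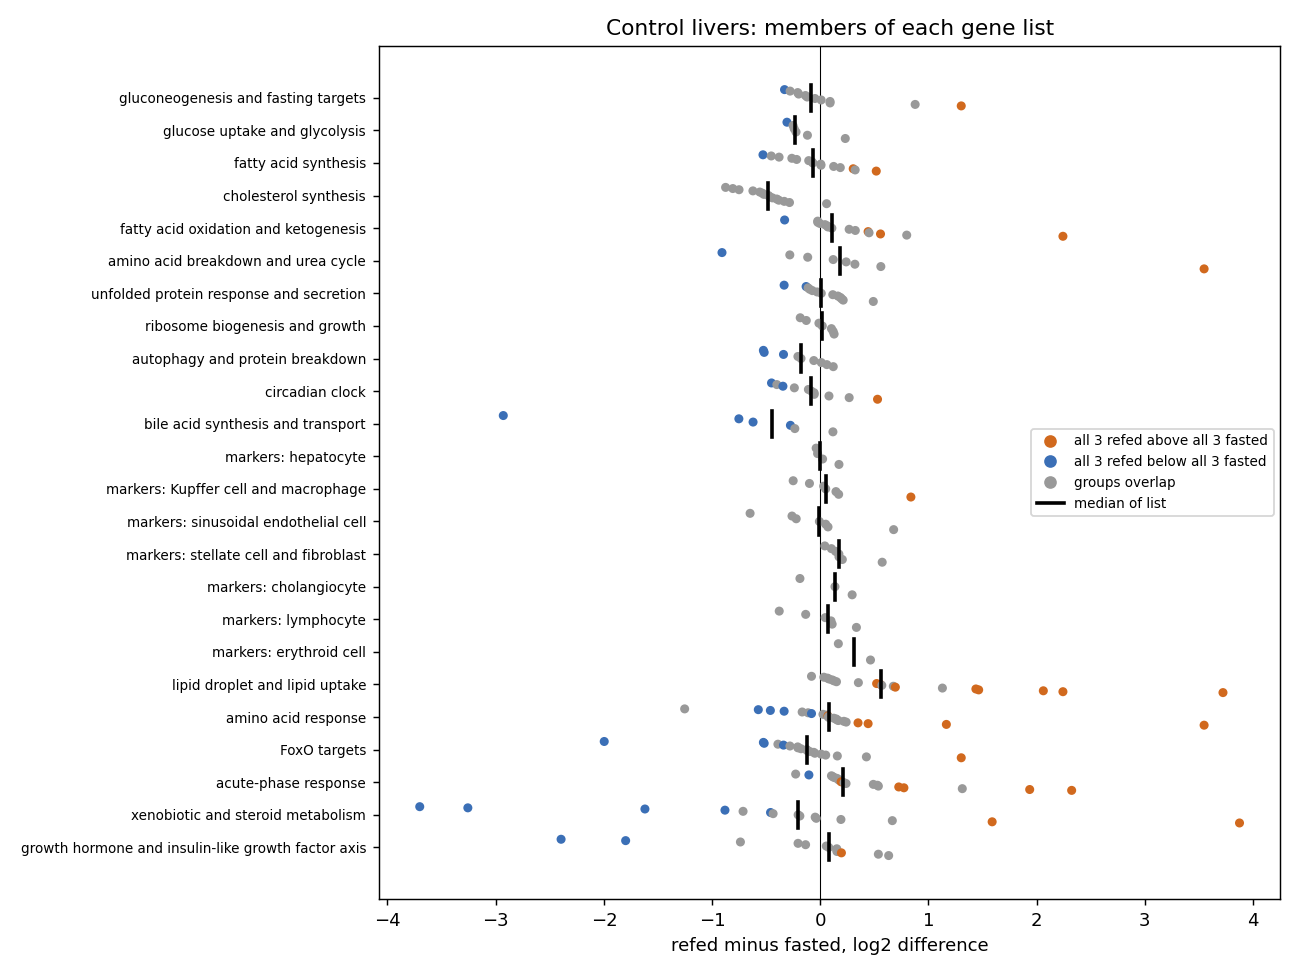
Refed minus fasted difference on the log2 scale (x axis) for each measured member of the gene lists (rows) in WT livers. Points are genes, coloured where the groups did not overlap, and black bars are list medians, which run from -0.48 for cholesterol synthesis to 0.56 for lipid droplets and lipid uptake.

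Fat synthesis itself was less uniform. Scd1, which introduces the double bond of oleate, read 13.18, 13.01 and 13.02 in the fasted livers and 13.36, 13.66 and 13.74 in the refed livers, 1.43-fold higher (SE 0.133 on a log2 difference of 0.52, limma adjusted p = 0.621). Gpam, which starts triglyceride assembly, differed by 0.30 (adjusted p = 0.835). Mid1ip1, a partner of acetyl-CoA carboxylase, lay on the other side at -0.53 (adjusted p = 0.725). Srebf1, the gene of SREBP-1c, read 9.63, 9.45 and 8.75 fasted and 9.16, 9.54 and 9.15 refed. Its difference was 0.01 (95% interval -0.59 to 0.60). It was -0.02 after median centring of the arrays and -0.0035 after cyclic loess, so it has no settled direction. Fasn, the fatty acid synthase, read 10.74, 10.02 and 9.70 fasted and 10.45, 9.60 and 9.26 refed, a difference of -0.38 (interval -1.28 to 0.52). Acly, which supplies cytosolic acetyl-CoA, differed by -0.26 (interval -0.79 to 0.26), and Acaca, acetyl-CoA carboxylase, by -0.07 (interval -0.47 to 0.33). Across the 15 measured of 16 genes listed, 2 were higher and 1 lower without overlap, against 5.18% and 4.78% of all features, 7 had a higher and 8 a lower refed mean, the median was -0.07, and 0 passed the test.

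In glucose uptake and glycolysis, 6 of 10 listed genes were measured. Slc2a2, the GLUT2 glucose transporter, differed by -0.31 (adjusted p = 0.747) and was the 1 gene separated. Pklr, liver pyruvate kinase, differed by -0.25 (interval -0.93 to 0.43). The list had 0 genes higher and 1 lower without overlap, against 5.18% and 4.78% of all features, a median of -0.23, and 0 calls. Each of its 6 intervals lay inside 2-fold.

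**Figure D4:**
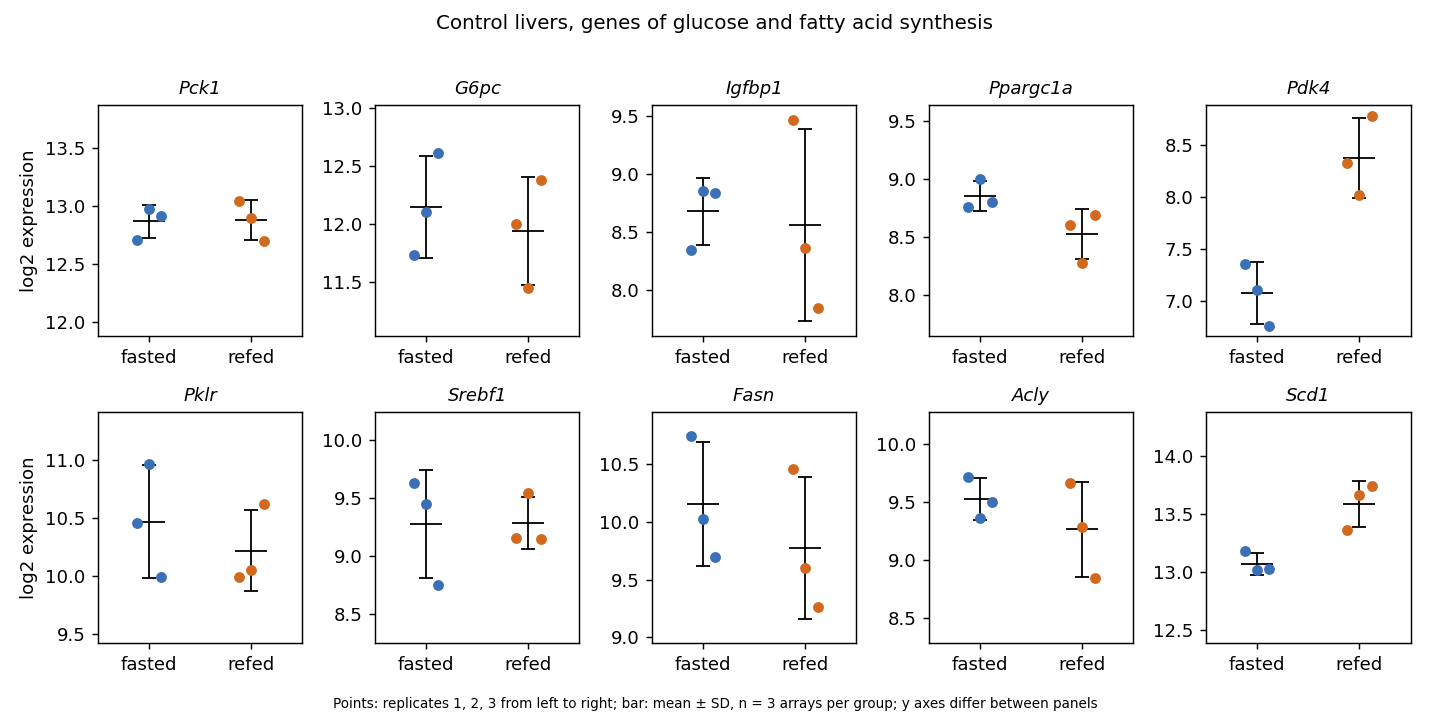
Log2 signal (y axis) in each of the 3 fasted and 3 refed WT livers for genes known to follow feeding in liver. Points are arrays, and bars show the mean and SD of 3 arrays with separate y axes; Pck1 overlaps between 12.70 and 13.04, while Pdk4 reads 6.76 to 7.36 fasted and 8.02 to 8.78 refed.

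Most genes of glucose production and fasting targets overlapped between the groups. G6pc, the catalytic subunit of glucose-6-phosphatase, read 11.73, 12.11 and 12.61 in the fasted livers and 12.00, 11.45 and 12.38 in the refed livers, a difference of -0.21 (95% interval -0.93 to 0.52). Igfbp1, a secreted binding protein that insulin represses, read 8.34, 8.86 and 8.84 fasted and 9.47, 8.37 and 7.84 refed, a difference of -0.12 (interval -1.09 to 0.85). Fbp1, fructose-1,6-bisphosphatase, differed by -0.14 (interval -0.39 to 0.11). Ppargc1a, the coactivator PGC-1alpha, read 8.76, 9.00 and 8.80 fasted and 8.60, 8.28 and 8.69 refed. It was separated by a narrow margin, with a difference of -0.33 (interval -0.68 to 0.02).

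Pdk4 encodes a kinase that inhibits pyruvate dehydrogenase and is known to be high in fasting. It read 7.36, 7.10 and 6.76 in the fasted livers and 8.33, 8.02 and 8.78 in the refed livers. All refed livers were above all fasted ones, 2.47-fold higher (difference 1.30, SE 0.236, adjusted p = 0.431 by limma). The TKO difference was 0.81, in the same direction. Of the 12 measured of 14 genes listed, 1 was higher and 1 lower without overlap, against 5.18% and 4.78% of all features. The list median was -0.09 and 0 passed the test.

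Genes of fatty acid oxidation and ketogenesis had a median of 0.11 over 15 measured of 22 listed genes, with 0 calls. Without overlap, 3 were higher and 1 lower, against 5.18% and 4.78% of all features. The 3 were Cidec, Plin2 and Fgf21, whose values are given above. Cidec and Plin2 are also on the lipid droplet list and Fgf21 encodes a hormone, so no enzyme of oxidation or ketogenesis was higher without overlap. Cpt1a, the gate for fatty acid entry into mitochondria, differed by 0.07 (interval -0.21 to 0.36). Bdh1, which interconverts the ketone bodies, differed by -0.33 (adjusted p = 0.927) and was the 1 gene lower.

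Among the 11 pathway lists, bile acid synthesis and transport was the one in which most measured members were separated, and they were lower in the refed livers. Cyp8b1, the sterol 12-alpha-hydroxylase that sets the share of cholic acid, read 11.32, 10.29 and 12.00 in the fasted livers and 8.77, 8.48 and 7.57 in the refed livers. The difference was -2.93 (SE 0.487), 7.62-fold lower with an adjusted p of 0.36 by limma. In TKO livers it read 11.20, 10.87 and 10.80 fasted and 7.55, 9.07 and 9.67 refed, a difference of -2.20. Low values again sat with the refed label. Cyp7a1, the rate-limiting enzyme of bile acid synthesis, read 12.09, 12.24 and 12.21 fasted and 11.64, 11.55 and 11.10 refed, 1.68-fold lower (SE 0.161 on a difference of -0.75, adjusted p = 0.544 by limma), against 0.10 in TKO livers. Abcb11, the bile salt export pump, read 10.18, 10.39 and 10.16 fasted and 9.84, 9.73 and 9.30 refed, 1.54-fold lower (adjusted p = 0.654). Slc10a1, the bile salt uptake carrier, differed by -0.28 (adjusted p = 0.782). Nr0b2, the SHP repressor that bile acids induce through FXR, overlapped at 0.12. All 6 listed genes were measured, of which 4 were lower and 0 higher without overlap, against 4.78% of all features lower, the median was -0.45 in WT and -0.43 in TKO, and 0 passed the test.

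Cholesterol synthesis had a list median of -0.48, the lowest of the lists with all 6 arrays, and it ran from -0.93 without refed replicate 1 to -0.18 without refed replicate 3. Of its genes, 0 of 15 measured, from 21 listed, were separated, against 9.95% of all features, and 0 were called. Sqle, squalene epoxidase, read 10.40, 9.26 and 9.71 in the fasted livers and 10.68, 8.74 and 7.33 in the refed livers. The first fasted and the first refed liver held the highest values of their groups. The difference of -0.88 had a 95% interval of -2.80 to 1.05, and it ran from -1.76 to -0.08 as each array was left out. Cyp51, lanosterol demethylase, showed the same order of livers with 10.46, 9.20 and 9.69 fasted and 10.11, 8.88 and 7.93 refed (difference -0.81, interval -2.19 to 0.57). Hmgcs1, the cytosolic HMG-CoA synthase, read 11.64, 10.02 and 10.69 fasted and 11.57, 10.25 and 9.38 refed (difference -0.38). Taken as the median deviation of its members from their mean, the list stood at 0.79, -0.18 and 0.11 in the fasted livers and at 0.55, -0.37 and -0.75 in the refed ones. Livers of 1 feeding state thus differed from each other by more than the group medians did. The TKO median was 0.14.

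In amino acid breakdown and the urea cycle, Otc, ornithine transcarbamylase, read 11.63, 11.62 and 11.90 in the fasted livers and 10.49, 11.17 and 10.76 in the refed livers, 1.88-fold lower (difference -0.91, adjusted p = 0.535). With Asns, also on this list, 1 of 8 measured genes, from 12 listed, was higher and 1 lower without overlap. The 1 higher was Asns, which makes an amino acid, so no gene of breakdown or the urea cycle was higher without overlap. Of all features, 5.18% were higher and 4.78% lower. The list median was 0.18 and 0 passed the test. The unfolded protein response and secretion list, 13 of 13 genes, had 0 higher and 2 lower without overlap, against the same 5.18% and 4.78%. Its median was 0.01 (-0.018 after median centring), with 0 calls. Ribosome biogenesis and growth, 7 of 8 genes, had 0 separated, against 9.95% of all features, a median of 0.02 (-0.0085 after median centring) and 0 calls.

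Autophagy and protein breakdown had 0 genes higher and 3 lower without overlap among 9 of 10 listed, against 5.18% and 4.78% of all features. Its median was -0.18, with 0 calls. Gabarapl1, an ATG8 family protein of the autophagosome, read 12.12, 12.09 and 12.06 in the fasted livers and 11.30, 11.63 and 11.79 in the refed livers. The difference was -0.52 in WT (adjusted p = 0.664) and -0.52 in TKO. Sesn1, a sestrin that restrains mTORC1, read 7.77, 8.00 and 8.01 fasted and 7.32, 7.45 and 7.43 refed (difference -0.53, adjusted p = 0.537). Fbxo32, the ubiquitin ligase atrogin-1, differed by -0.34 (adjusted p = 0.733).

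These 3 genes are also FoxO targets in the literature of muscle and other tissues. Over the 19 measured of 20 genes in a FoxO target list added after values had been seen, 1 was higher (Pdk4) and 4 lower without overlap, against 5.18% and 4.78% of all features. The median was -0.12 in WT and -0.13 in TKO, and 0 passed the test. Depp1, a FoxO-induced regulator of autophagy, read 10.04, 9.48 and 9.62 in the fasted livers and 7.14, 8.71 and 7.29 in the refed livers. Its difference was -2.00 (SE 0.42), 3.99-fold lower with an adjusted p of 0.535 by limma. In TKO livers it read 8.46, 7.39 and 7.14 fasted and 5.06, 6.02 and 5.90 refed, a difference of -2.00 again. The TKO levels thus sat lower in each feeding state while the refeeding difference was of the same size.

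The FoxO genes themselves were measured in the WT livers. Foxo1 read 9.53, 9.65 and 9.48 fasted and 9.04, 9.02 and 8.84 refed, 1.5-fold lower (difference -0.59, SE 0.109, adjusted p = 0.431 by limma). Foxo4 read 7.07, 7.70 and 6.96 fasted and 6.20, 5.86 and 6.29 refed, 2.18-fold lower (adjusted p = 0.509). Foxo3 differed by -0.13 (adjusted p = 0.997). All 3 were lower in every refed than in every fasted liver, as were 4.78% of all features. The Foxo3 difference was the smallest of the 3, at -0.17 to -0.096 with each array left out. Which exons these features read, relative to the deleted ones, is not stated, so their levels in TKO arrays check nothing about the deletion.

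The list of xenobiotic and steroid metabolism includes 3 of the 10 genes with the widest differences among single-gene features without overlap. It was drawn up after these values were seen, so that count is a description only. Cyp2b10, a cytochrome P450 induced through the nuclear receptor CAR, read 9.50, 10.67 and 8.02 in the fasted livers and 7.08, 4.79 and 5.21 in the refed livers, 13.0-fold lower (difference -3.70, SE 0.816, adjusted p = 0.545 by limma). The TKO difference was -3.31. Nr1i3, the gene of CAR, differed by -0.46 (adjusted p = 0.545). Hsd17b6, a hydroxysteroid dehydrogenase, read 12.29, 12.53 and 12.34 fasted and 7.13, 10.92 and 9.33 refed. The fasted livers lay close together while the refed ones were spread, and the difference of -3.26 (adjusted p = 0.654) ran from -4.15 to -2.26 as each array was left out. Cyp17a1, a steroid hydroxylase, read 4.87, 8.85 and 7.25 fasted and 11.65, 10.82 and 10.11 refed, 14.7-fold higher (difference 3.87, SE 0.968, adjusted p = 0.608 by limma), against -0.16 in TKO livers. Slco1a4, an organic anion uptake carrier, read 10.04, 10.60 and 9.77 fasted and 8.51, 8.56 and 8.48 refed, 3.08-fold lower (adjusted p = 0.234). Gstm3, a glutathione transferase, read 7.64, 7.83 and 7.22 fasted and 8.45, 9.08 and 9.94 refed, 3.01-fold higher (adjusted p = 0.582). In this list, added after values had been seen, 2 of 15 measured genes, from 20 listed, were higher and 5 lower without overlap. Of all features, 5.18% were higher and 4.78% lower. The list median was -0.20 and 0 passed the test.

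In the growth hormone and insulin-like growth factor axis, Igfbp2, a circulating IGF binding protein, read 10.65, 10.55 and 10.86 in the fasted livers and 8.03, 8.84 and 8.01 in the refed livers. It was 5.26-fold lower (difference -2.40, SE 0.241, adjusted p = 0.189 by limma). The TKO livers read 10.83, 10.25 and 10.36 fasted and 6.83, 8.01 and 9.10 refed, a difference of -2.50. Socs2, which growth hormone induces and which damps its receptor, read 9.95, 10.83 and 10.04 fasted and 9.15, 8.31 and 7.96 refed, 3.48-fold lower (adjusted p = 0.52), against 0.18 in TKO livers (interaction -1.98, unadjusted p = 0.0164, adjusted p = 0.924). This added list of 12 genes on 13 features had 1 higher and 2 lower without overlap, against 5.18% and 4.78% of all features. Its median was 0.08, with 0 calls.

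The circadian clock list had 1 gene higher and 2 lower without overlap among 11 of 15 listed, against 5.18% and 4.78% of all features. Its median was -0.08, with 0 calls. Clock differed by 0.53 (adjusted p = 0.665). Per3 read 8.93, 8.93 and 8.89 in the fasted livers and 8.36, 8.61 and 8.44 in the refed livers, a difference of -0.45 (adjusted p = 0.582), and Tef, a clock-controlled transcription factor, differed by -0.35 (adjusted p = 0.662). Since sampling times are not given, feeding state and time of day cannot be told apart.

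Rgs16, a regulator of G protein signalling, read 10.54, 11.28 and 9.16 in the fasted livers and 6.88, 8.60 and 7.37 in the refed livers, 6.54-fold lower (difference -2.71, SE 0.631, adjusted p = 0.58 by limma) and -1.35 in TKO livers. Ankrd55, an ankyrin repeat gene, read 8.23, 8.59 and 7.96 fasted and 5.93, 5.45 and 5.44 refed. It was 6.29-fold lower (difference -2.65, SE 0.209) and had the smallest adjusted p after Abhd1, 0.0801. In TKO livers it read 5.34, 7.47 and 5.73 fasted and 7.18, 6.72 and 5.47 refed, a difference of 0.28 (interaction unadjusted p = 0.00283, adjusted p = 0.924).

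The acute-phase genes differed between livers of the same feeding state. Lcn2, a siderophore-binding acute-phase protein, read 9.39, 10.12 and 11.37 in the fasted livers and 13.71, 12.05 and 12.10 in the refed livers, 5.00-fold higher (difference 2.32, SE 0.625, adjusted p = 0.662 by limma). Orm2, an orosomucoid, read 9.58, 9.31 and 10.23 fasted and 13.62, 11.07 and 10.24 refed, a difference of 1.94 (interval -0.04 to 3.91) that was 0.95 to 2.64 with each array left out. Saa3, a serum amyloid A gene, differed by 0.77 (adjusted p = 0.58). Of 20 features for 19 of 22 genes in this added list, 18 had a higher refed mean, and 5 were higher and 1 lower without overlap. Of all features, 5.18% were higher and 4.78% lower without overlap. The list median was 0.21 and 0 passed the test. The median deviation of the list was -0.17, -0.12 and -0.06 in the fasted livers and 0.49, 0.03 and -0.12 in the refed livers, so the first refed liver stood apart, and the list median was 0.09 without it.

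Markers of the other cell types in liver were read beside these groups. Of 36 marker features in 7 lists, 1 was separated, Marco, a macrophage scavenger receptor, at 0.84 higher in the refed livers (adjusted p = 0.602), and 0 were called. That is 2.78% of the marker features, against 9.95% of all features. The list medians were 0.00 for hepatocytes, 0.05 for Kupffer cells and macrophages, -0.01 for sinusoidal endothelium, 0.17 for stellate cells and fibroblasts, 0.14 for cholangiocytes, 0.07 for lymphocytes and 0.32 for the 2 erythroid genes. The 7 stellate genes all had higher refed means, though 0 were separated. Their median deviation was -0.05, 0.02 and -0.20 in the fasted livers and -0.19, 0.14 and 0.37 in the refed livers. The stellate list median was 0.039 without refed replicate 3. Clec4g, an endothelial lectin, read 11.60, 11.41 and 11.59 fasted and 10.50, 10.65 and 11.51 refed (difference -0.65, limma adjusted p = 0.884). Lyve1, on the same endothelial list, differed by 0.68 in the other direction. Of the 7 endothelial genes, 3 had a higher and 4 a lower refed mean. In whole liver, fewer cells of a type and less RNA per cell cannot be told apart, and the part of cell makeup in the results above was not tested.

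The TKO arrays gave a reading of the same features in livers that the WT comparison did not use. Among the 58 features at least 2-fold higher without overlap in WT, 0.25% of all, 45 had a higher refed mean in TKO livers and 13 a lower one, and 15 were separated upward and 1 downward. Their median difference was 1.29 in WT, which the choice fixes, and 0.41 in TKO. Among the 53 at least 2-fold lower, 0.228% of all, 47 were lower and 6 higher in TKO livers, 25 were separated downward and 0 upward, and the medians were -1.38 and -0.71. Over all features 40.3% were higher and 59.7% lower in the refed TKO livers, and 3.5% were separated upward and 9.33% downward. The TKO comparison called 0 features at an adjusted p under 0.05 by limma, with 1548 at an unadjusted p under 0.05. The interaction of genotype and feeding also had 0 calls, with 1133 at an unadjusted p under 0.05. A difference between the genotypes in the response of any single gene was therefore not shown.

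**Figure D5:**
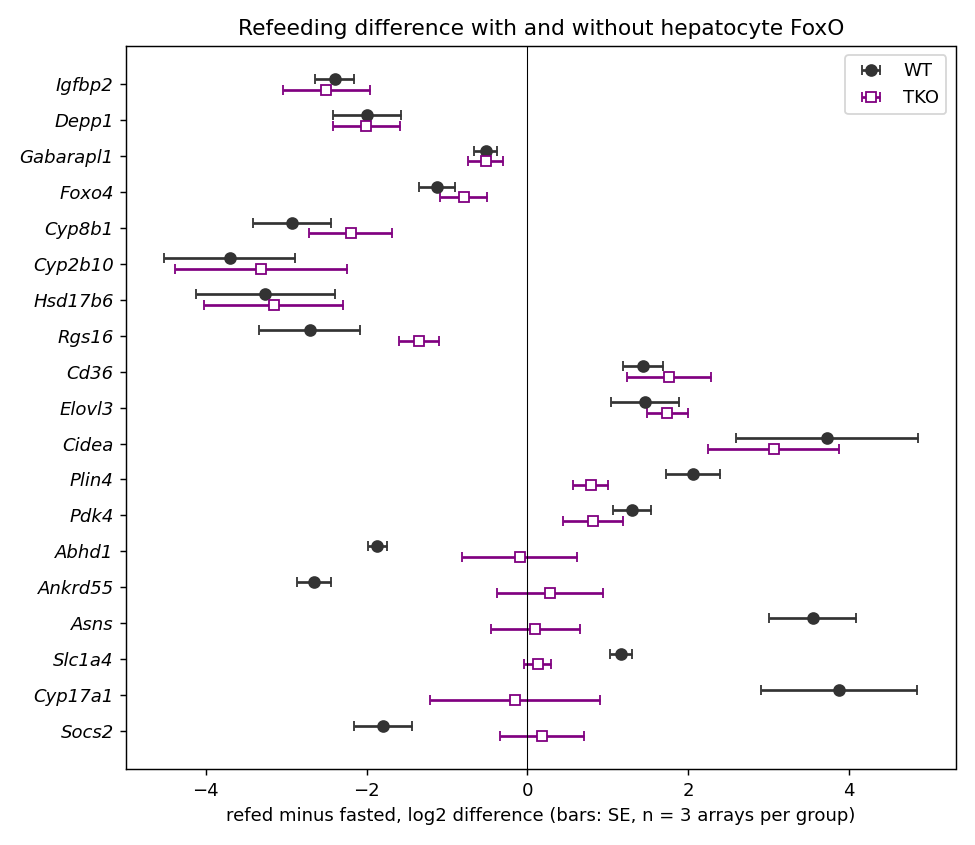
Refed minus fasted difference on the log2 scale (x axis) in WT livers (filled circles) and TKO livers (open squares) for genes described above, chosen after their values were seen, with bars of 1 SE from 3 arrays per group. Igfbp2 and Depp1 lie near the same place in both genotypes, while Asns stands at 3.55 in WT and 0.10 in TKO.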

How the data were processed

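Total RNA from mouse liver was extracted with Trizol and labelled as biotin cRNA, per the labels' protocols, and measured on 1-colour arrays. The authors deposited log2 values made with RMA and Partek, per the submitters' processing notes, with versions and genome build not given in the sources used here. The log2 scale was read from the values, 1.84 to 14.14. RMA, as a method, corrects background, normalizes by quantiles and summarises probes, and the array medians still ran from 5.79 to 5.90. The depth of an array has no count: 3 arrays per group limit the precision.

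Groups came from the labels. Replicate numbers were given in accession order and pair nothing. Refed and fasted WT arrays were compared with limma 3.58.1 in R 4.3.3 (lmFit, eBayes, 1 mean per group, 6 arrays), two-sided, with Benjamini-Hochberg adjustment over 23238 features and a threshold of 0.05. The TKO comparison was fitted to 6 arrays, the interaction to all 12. No feature was filtered. Separated, or without overlap, means that every array of 1 group lay above every array of the other. Symbols came from GEO's platform annotation, which can be old; 14884 of the 14939 features with 1 symbol carried a gene ID found in RefSeq. Features of several genes or none were left unnamed.

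Named genes were the members of 11 pathway lists and the 5 largest differences in each direction; other names, and 6 added lists, were chosen after values were seen. The members and all lists were chosen with earlier results of these data known. Alternatives were median centring, cyclic loess, a filter on the 30% dimmest features, limma's trend with robust fitting, array weights, an ordinary linear model, the 12-array fit, other thresholds and leaving out each array.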

Additional observations from a re-analysis of the deposited data

How the results depend on the processing

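No paired analysis was possible because the labels give the arrays no replicate numbers. The count of called features, 1 as reported, was 1 under median centring, trend and robust fitting, and array weights. It was 2, Abhd1 and Ankrd55, without the 30% dimmest features and 2, the same genes, at an adjusted p under 0.1, and 0 under cyclic loess, in the fit to all 12 arrays (1102 at an unadjusted p under 0.05) and in an ordinary linear model. It was 0 to 0 with each array left out. The count past 2-fold was 165, 847 at 1.5-fold, and 199 to 254 with each array left out, with 254 when fasted replicate 3 was absent. Features without overlap numbered 2313, against 4387 to 4863 with 1 array fewer, where fewer arrays must be ordered. The interaction had 0 calls, and 0 to 1 with each array left out, the 1, Gstp3, when TKO fasted replicate 3 was absent. Some small differences changed sign: Srebf1 was -0.021 under median centring, -0.0035 under cyclic loess and -0.26 to 0.18 with each array left out, and Pck1 was -0.019 under median centring and -0.075 to 0.10. With each array left out, Igfbp1 ran from -0.58 to 0.24, Acaca from -0.22 to 0.025, G6pc from -0.43 to 0.039, Cpt1a from -0.013 to 0.16, Nr0b2 from -0.31 to 0.43 and Hmgcs1 from -0.97 to 0.13; the cause was not tested. In alternatives added after seeing the data, the medians of 8 of the 24 lists changed sign when an array was left out: gluconeogenesis (-0.11 to 0.018), fatty acid synthesis (-0.17 to 0.056), the unfolded protein response (-0.034 to 0.099), ribosome biogenesis (-0.092 to 0.14), and the hepatocyte, Kupffer cell, endothelial and lymphocyte markers. For 3 of them, the unfolded protein response, ribosome biogenesis and hepatocyte markers, rescaling the arrays also changed the sign. Other medians kept their sign but ran from -0.27 to -0.10 for glucose uptake and glycolysis, -0.23 to -0.067 for autophagy and 0.046 to 0.11 for the amino acid response. FoxO targets ran from -0.23 to -0.10 and the growth hormone axis from 0.0033 to 0.081. Fatty acid oxidation ran from 0.052 to 0.21, amino acid breakdown from 0.069 to 0.25 and the circadian clock from -0.15 to -0.029. Stellate markers ran from 0.039 to 0.26, cholangiocyte markers from 0.046 to 0.20 and the acute-phase list from 0.086 to 0.33. No detection values came with the arrays, which leaves the error of dim features unknown.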

Other observations

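Genes outside the lists also differed between the feeding states. The following 4 were chosen after their values were seen, and none had an adjusted p under 0.05. Apom, an apolipoprotein that carries sphingosine-1-phosphate on HDL, read 9.30, 9.65 and 9.86 in the fasted WT livers and 8.14, 7.52 and 7.10 in the refed ones, 4.05-fold lower (difference -2.02, SE 0.282, adjusted p = 0.282 by limma). In TKO livers it read 9.76, 9.09 and 9.42 fasted and 7.18, 7.85 and 8.33 refed, a difference of -1.64, again without overlap. Kyat3, a kynurenine aminotransferase, read 10.43, 10.28 and 10.17 fasted and 8.66, 8.67 and 7.57 refed, 3.98-fold lower (adjusted p = 0.359), and differed by -1.17 in TKO livers. Treh, the enzyme that splits trehalose, read 5.39, 6.01 and 5.69 fasted and 7.37, 7.04 and 8.11 refed, 3.51-fold higher (adjusted p = 0.36), against 0.68 in TKO livers. Sptlc3, a subunit of serine palmitoyltransferase, read 3.32, 3.27 and 3.18 fasted and 3.41, 5.04 and 6.44 refed, a difference of 1.71 (adjusted p = 0.884). The first refed liver was near the fasted values of Sptlc3, and the same liver held the lowest refed value of Cidea, at 5.03, and of Cidec, at 8.13.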
